A study of Mus musculus with 20 samples.

Results

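Hedgehog ligands, their receptors and the GLI transcription factors were described in the intervertebral disc through 9 genes: the ligands Shh and Ihh, the receptor Ptch1, the decoy receptor Hhip, the transducer Smo, the inhibitor Sufu and the factors Gli1, Gli2 and Gli3. They were chosen by gene symbol among the 19505 genes named on the Clariom S mouse array, and each was represented by 1 probe set. Tissue came from 10 mice aged 13 weeks. The 5 ank mice were homozygous for the progressive ankylosis allele of Ank, which lowers the function of the ANK transporter, and the 5 wildtype (WT) mice were their littermates, bred from heterozygotes of the C3FeB6 A/Aw-J-Ank ank/J stock. Mice 32 and 59 (males) and 33, 53 and 55 (females) were WT, whereas 31 and 48 (males) and 34, 39 and 41 (females) were ank. From each mouse the gelatinous core of the disc, the nucleus pulposus (NP), and its fibrous ring, the annulus fibrosus (AF), were dissected separately and pooled over discs, and 1 array was run per tissue, giving 20 arrays. These were caudal discs by the methods, but caudal and lumbar ones by the labels. The allele was carried by every cell of the mouse, so a difference could arise in any cell type of the sample. Ank itself was not analysed here.

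Hedgehog ligands are secreted proteins that bind Ptch1 and thereby release Smo, which then acts at the primary cilium. Without ligand, Sufu holds the Gli proteins and protein kinases direct Gli3, and in part Gli2, to be trimmed into repressors. With ligand, Gli2 and Gli3 activators switch on targets that include Ptch1, Hhip and Gli1, so these serve as readouts of the pathway. In the spine, Shh is made by the notochord and by the NP cells that derive from it, and Ihh is made by prehypertrophic chondrocytes of the growth plate and endplate.

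All values are log2 signals. An array was said to detect a gene when the signal passed the level that 95% of 1427 chemosensory receptor genes (odorant, pheromone and trace amine receptors, not expected in the disc) stayed under in that array, a threshold of 6.80 to 8.28 in the NP and 6.72 to 8.41 in the AF. By this measure the 9 genes were detected in 28 of 180 values (15.6%), against 25.9% for all genes. Ihh and Gli2 were detected in 0 of 20 arrays. A second background, taken from 23 antigenomic probe sets that match no mouse sequence, was lower (4.69 to 5.31), and 153 of the 180 values lay above it, but Gli2 was lower in each of the 10 NP arrays. Differences below are therefore differences of signal, and no fold is given for genes under the receptor background in both groups. Array quality was given by the control AUC, which states how often positive controls outrank negative controls on an array, and it ran from 0.71 to 0.789 in the NP and from 0.59 to 0.763 in the AF.

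The tissues matched their labels in part. The mean of 10 NP and notochord genes was 13.08 to 13.62 in NP arrays and 8.17 to 12.41 in AF arrays, and the mean of 10 AF and tendon genes was 7.09 to 8.67 in the NP and 9.89 to 12.89 in the AF. Scx, a defining tendon factor, was detected in 0 of 20 arrays, and Krt19, an NP keratin, reached 16.20 in an AF array. Among Y-linked genes, Eif2s3y, Uty and Kdm5d separated the labelled sexes for 3 of 3 genes in the NP and for 0 of 3 in the AF, where male ank mouse 31, the array of lowest control AUC, measured 4.28 for Eif2s3y and the highest female 4.36.

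The AF array of WT mouse 33 stood apart. Its growth plate and hypertrophic chondrocyte markers averaged 15.40, with 8 of 8 detected, against 6.68 to 9.26 and 2 to 6 of 8 in the other 9 AF arrays. Its skeletal muscle markers averaged 13.97 (10 of 10 detected, others 5.67 to 7.85, with 0 to 7 detected), its osteoblast markers 11.93 (4 of 5 detected, others 4.96 to 7.33, with 0 to 4) and its endothelial markers 9.19 (5 of 5 detected, others 4.78 to 5.85, with 0 to 1). Krt19 measured 4.24 in this array. Among the other 9 AF arrays, that of ank mouse 41 was the highest in each of these lists. These arrays also ranked highest in quality. Mouse 33 had the highest control AUC of the AF arrays, 0.763, and 6370 genes detected, against 1782 to 6120 in the other 9. Ank mouse 41 came next in both, at 0.749 and 6120. The 9 AF differences between genotypes, and several of the tissue differences, are given below with and without mouse 33. The part of these tissues and of array quality in the results was not tested. In bulk samples, fewer cells of a type and less RNA per cell cannot be told apart.

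Upstream sequence is shown for Ptch1 and Hhip, the readout genes that set this array apart, as the 250 bases before the RefSeq transcript start (GRCm38.p6), with CG dinucleotides in capitals. The Ptch1 window lies at chr13:63565736-63565985 on the minus strand and the Hhip window at chr8:80058009-80058258, also on the minus strand.
Ptch1: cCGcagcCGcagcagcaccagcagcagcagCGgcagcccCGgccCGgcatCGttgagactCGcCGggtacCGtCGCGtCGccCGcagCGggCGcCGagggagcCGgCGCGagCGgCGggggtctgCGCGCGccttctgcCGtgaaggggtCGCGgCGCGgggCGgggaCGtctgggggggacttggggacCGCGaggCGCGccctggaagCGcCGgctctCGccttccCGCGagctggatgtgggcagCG
Hhip: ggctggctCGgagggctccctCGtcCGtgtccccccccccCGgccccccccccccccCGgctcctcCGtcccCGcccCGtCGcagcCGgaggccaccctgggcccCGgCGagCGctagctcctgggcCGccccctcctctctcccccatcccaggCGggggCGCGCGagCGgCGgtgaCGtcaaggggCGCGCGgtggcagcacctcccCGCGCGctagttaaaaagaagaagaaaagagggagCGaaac
The Ptch1 window was 78.4% G or C with 41 CG dinucleotides, and 1.1% of the 32851 windows in the table held at least as many. The Hhip window was 76.0% G or C with 28, a number reached by 7.6% of windows, while the median window was 52.4% G or C with 6. Of the 9 genes, 7 had a window. The Gli site GACCACCCA, searched on both strands, was in 0 of the 7, as it was with at most 1 mismatch, against 0.23% and 5.8% of all windows. These letters say nothing of binding farther away. Shh and Gli1 are named only.

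Ptch1, the receptor and the best measured of the 9, was detected in 5 of 10 NP and 3 of 10 AF arrays. In NP of WT mice it measured 8.62, 7.65, 8.84, 6.70 and 7.08 in mice 32, 33, 53, 55 and 59, and in NP of ank mice 6.96, 7.77, 8.33, 8.28 and 5.83 in mice 31, 34, 39, 41 and 48. The genotypes overlapped almost completely, and ank mouse 48 was the lowest. In WT AF it measured 6.23, 11.94, 6.06, 7.62 and 4.80 in the same order of mice, and in ank AF 6.13, 5.96, 6.68, 6.82 and 6.88. Mouse 33 was the highest of all 20 arrays and WT mouse 59 the lowest, and the 5 ank arrays lay between them. The WT AF mean of 7.33 ± 2.77 (SD, n = 5) was 6.18 ± 1.16 (SD, n = 4) without mouse 33.

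Hhip, which binds the ligands at the cell surface and takes them from Ptch1, was detected in 1 array, again the AF of WT mouse 33. WT AF measured 5.35, 11.37, 6.52, 6.66 and 5.80 in mice 32, 33, 53, 55 and 59, and ank AF 5.40, 5.96, 5.88, 5.60 and 5.96 in mice 31, 34, 39, 41 and 48. All arrays but that of mouse 33 lay within a narrow band, in which the genotypes overlapped. In the NP, Hhip ran from 5.16 to 6.25 in WT and from 5.27 to 6.18 in ank mice, below the receptor background throughout. Without mouse 33 its WT AF mean fell from 7.14 ± 2.42 (SD, n = 5) to 6.08 ± 0.61 (SD, n = 4).

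**Figure D1:**
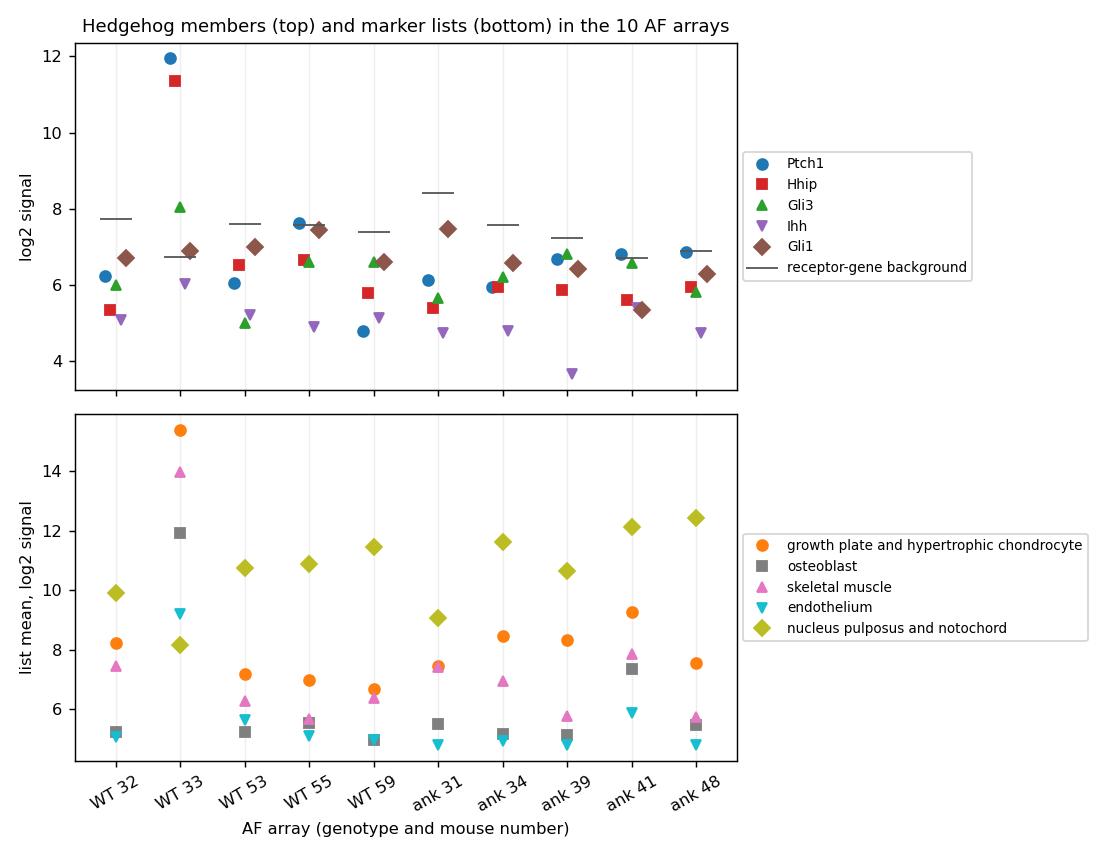
Log2 signal (y axis) in each AF array (x axis, genotype and mouse) of 5 of the 9 genes with each array's receptor background as a bar (top), and of the means of 5 marker lists (bottom). Ptch1 at 11.94 and Hhip at 11.37 in WT mouse 33 lie above every other AF value of these genes, the next being 7.62 and 6.66, and the growth plate mean of that array is 15.40.

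Shh, the ligand of the notochord and NP, was detected in 3 NP arrays, all WT, and in 0 AF arrays. NP signals were 7.13, 7.50, 6.79, 7.51 and 7.75 in WT mice 32, 33, 53, 55 and 59 and 7.38, 8.24, 6.96, 6.42 and 7.38 in ank mice 31, 34, 39, 41 and 48. Both the highest and the lowest belonged to ank mice, and ank mouse 34 at 8.24 was not detected because its background was 8.28. AF signals were 6.21, 5.44, 7.18, 6.36 and 6.15 in WT and 7.12, 7.17, 6.20, 6.34 and 5.70 in ank mice. The AF of mouse 33, highest in Ptch1, was the lowest of the 20 in Shh.

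Ihh, the ligand of prehypertrophic cartilage, stayed under the receptor background everywhere. Its NP signals were 4.80 to 5.68 in WT and 4.92 to 5.47 in ank mice. AF signals were 5.08, 6.02, 5.21, 4.89 and 5.13 in WT mice 32, 33, 53, 55 and 59 and 4.74, 4.79, 3.67, 5.40 and 4.73 in ank mice 31, 34, 39, 41 and 48. Mouse 33 was again the highest of the AF arrays and the genotypes overlapped through ank mouse 41.

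Smo, the membrane protein that Ptch1 restrains, varied least. It was detected in 3 NP and 4 AF arrays, and its 20 signals lay between 6.71 and 7.97. Group means were 7.11 ± 0.21 in WT NP, 6.98 ± 0.17 in ank NP, 7.21 ± 0.17 in WT AF and 7.34 ± 0.38 in ank AF (SD, n = 5 each). The highest value, 7.97, was that of ank mouse 39 in the AF.

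Sufu, which holds Gli proteins in the cytoplasm, was detected in 3 NP and 0 AF arrays. NP signals were 6.92, 4.79, 6.23, 5.81 and 7.40 in WT mice 32, 33, 53, 55 and 59 and 6.33, 6.41, 7.09, 6.90 and 5.01 in ank mice 31, 34, 39, 41 and 48. In each genotype 1 mouse, WT 33 or ank 48, stood apart as the lowest. AF signals were 5.10, 5.17, 5.29, 4.26 and 5.20 in WT and 4.71, 5.33, 5.34, 5.13 and 5.16 in ank mice, and those NP arrays of WT 33 and ank 48 fell within the AF range.

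Gli1, a transcriptional activator and a direct target of the pathway, was detected only in the AF of WT mouse 33, at 6.91, although ank mouse 31 had the highest signal, 7.48, in the array of highest background. AF signals were 6.70, 6.91, 7.01, 7.44 and 6.61 in WT mice 32, 33, 53, 55 and 59 and 7.48, 6.58, 6.43, 5.35 and 6.28 in ank mice 31, 34, 39, 41 and 48. NP signals were 6.20, 5.77, 5.69, 6.45 and 5.32 in WT and 6.05, 6.78, 5.86, 4.78 and 5.66 in ank mice. Each WT AF signal exceeded each WT NP signal, whereas in ank mice the tissues overlapped.

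Gli2, the main activator downstream of Smo, had the signals closest to the floor. In the NP it measured 3.91 to 4.50 in WT and 3.96 to 4.60 in ank mice. In the AF it measured 5.98, 5.39, 5.47, 4.01 and 4.29 in WT mice 32, 33, 53, 55 and 59 and 5.20, 5.59, 5.86, 5.51 and 4.53 in ank mice 31, 34, 39, 41 and 48. Of the AF arrays, 7 were above the antigenomic background and 0 above the receptor background.

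Gli3, the main repressor of the family, was detected in 4 NP arrays and in the AF of WT mouse 33. NP signals were 8.26, 7.62, 8.07, 6.34 and 6.92 in WT mice 32, 33, 53, 55 and 59 and 6.82, 6.51, 8.45, 7.79 and 7.21 in ank mice 31, 34, 39, 41 and 48. AF signals were 6.02, 8.05, 5.00, 6.62 and 6.61 in WT and 5.66, 6.21, 6.82, 6.59 and 5.82 in ank mice. The genotypes overlapped in both tissues, and mouse 33 was the highest of the AF arrays.

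**Figure D2:**
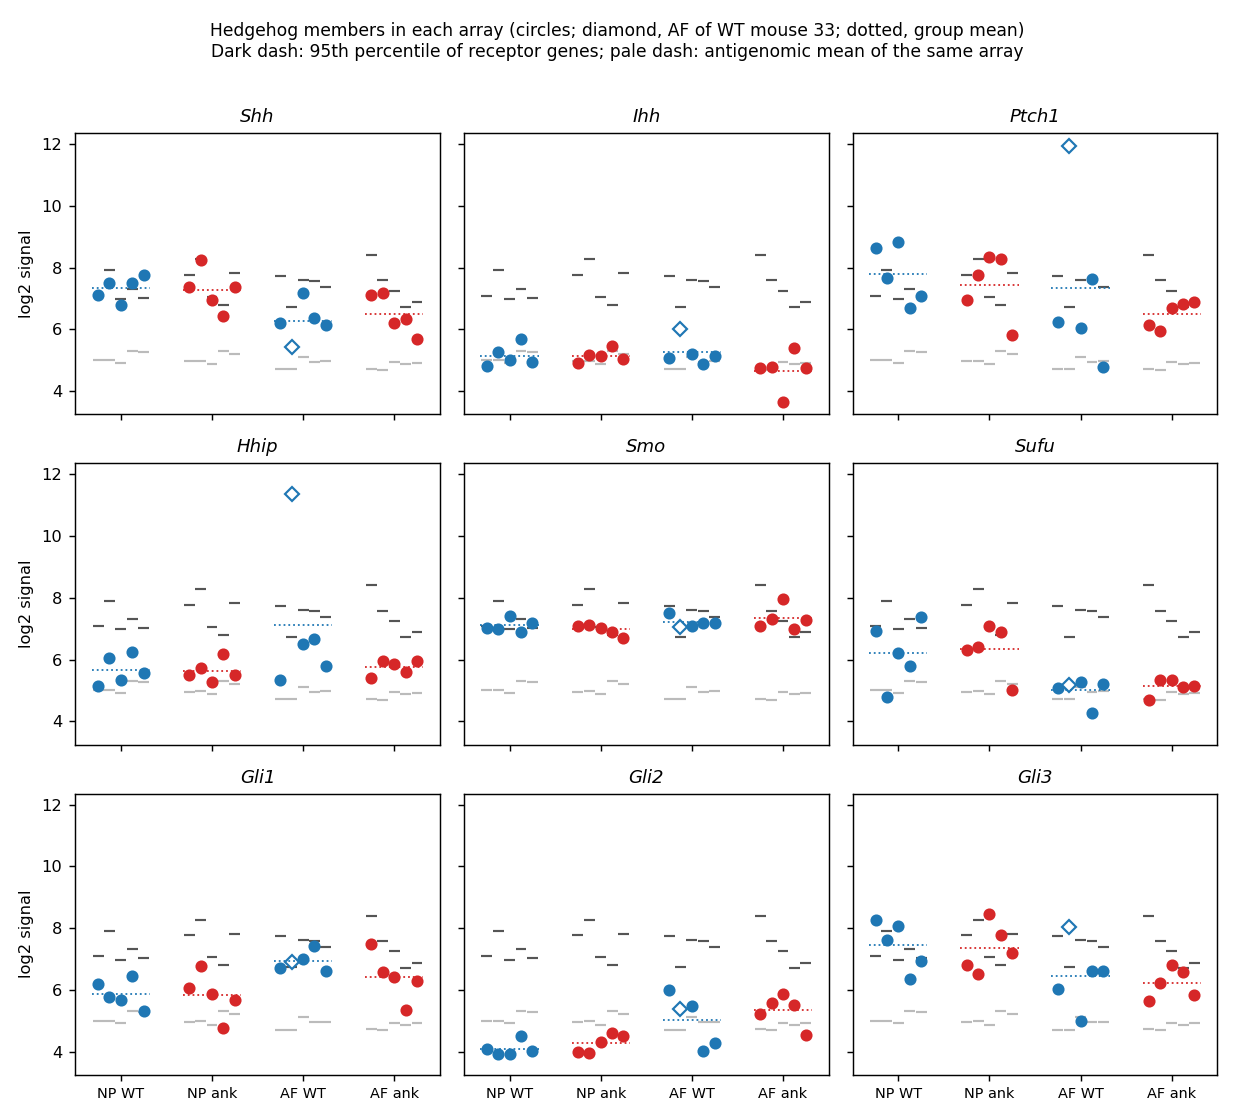
Log2 signal (y axis) of the 9 genes in each of the 20 arrays, by tissue and genotype (x axis), with group means (dotted) and each array's receptor and antigenomic backgrounds (dark and pale dashes). WT and ank arrays overlap for every gene in both tissues, and WT NP and WT AF are apart for Gli1 alone, at 5.32 to 6.45 and 6.61 to 7.44.

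The first question was whether the ank genotype changed these genes. For 0 of the 9 was a difference between ank and WT called in either tissue. In the main test (limma, Benjamini-Hochberg adjustment), which took genes detected in at least 5 of the 10 arrays of a tissue, Ptch1 was the member tested in the NP and 0 were tested in the AF. NP Ptch1 differed by −0.34 (ank minus WT, SE 0.53, 95% interval −1.49 to 0.80, adjusted p = 0.976), and without ank mouse 48 the difference was 0.058. Across all genes the same test called 0 of 6340 in the NP and 0 of 4080 in the AF (0%), with 269 and 154 at an unadjusted p under 0.05 (4.24% and 3.77%). The thresholds used in the study were a fold change of at least 1.75 and an unadjusted p under 0.05. In a fit of all 19505 genes without the filter, 0 of the 9 met them, against 2.12% of all genes in the NP and 2.5% in the AF. Under the filter, 3.31% of the genes tested in the NP and 3.7% in the AF met them.

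Fitted without a detection filter over all 19505 genes, the other members gave the same count. In the NP the differences between ank and WT ran from −0.34 for Ptch1 to 0.19 for Gli2, and the smallest adjusted p was 0.997 (0 of 9 called, 0% of all genes). The 95% intervals were widest for Ptch1 (−1.43 to 0.74), Sufu (−0.90 to 1.14) and Gli3 (−0.99 to 0.81), and differences within these intervals remain possible. Shh differed by −0.06 with an interval of −0.76 to 0.65, and Smo by −0.13 (−0.62 to 0.36).

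AF differences were larger but less certain. Hhip differed by −1.38 (ank minus WT, SE 0.90, 95% interval −3.33 to 0.57) and Ptch1 by −0.84 (SE 1.03, −3.07 to 1.40), each with an adjusted p of 0.985 (limma, 0 of 9 called, 0% of all genes). Without WT mouse 33 these became −0.32 for Hhip and 0.32 for Ptch1. Ihh differed by −0.60 (unadjusted p = 0.103 in limma), or −0.41 without mouse 33, and Gli1 by −0.51 (unadjusted p = 0.184), or −0.52 without it. Without ank mouse 41, whose AF Gli1 of 5.35 was the lowest, the Gli1 difference was −0.24. Gli3 differed by −0.24 and Shh by 0.24, and without mouse 33 by 0.16 and 0.03. Gli2, Smo and Sufu differed by 0.31, 0.13 and 0.13, or 0.40, 0.09 and 0.17 without it. With no filter, the number of genes whose genotypes did not overlap was 71 higher (0.364%) and 51 lower (0.261%) in ank NP, and 55 higher (0.282%) and 52 lower (0.267%) in ank AF. None of the 9 was among them in either tissue.

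Poly-A spike-in controls divided the arrays of each tissue into a set with high and a set with low spike-in signal, both of which held both genotypes. Within the sets of high and low signal, the AF difference of Ptch1 was −3.04 and 0.63, that of Hhip −2.68 and −0.51 and that of Shh 1.32 and −0.49. In the NP, Ptch1 differed by −0.68 and 0.17, Gli3 by −0.73 and 0.87 and Sufu by 0.63 and −0.65. None of these 6 was called in either set. The high set of WT AF held mice 32 and 33 alone, and without mouse 33 the AF difference in that set, against 1 WT array and with no test, was −0.18 for Ptch1, 0.33 for Hhip and 0.94 for Shh.

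**Figure D3:**
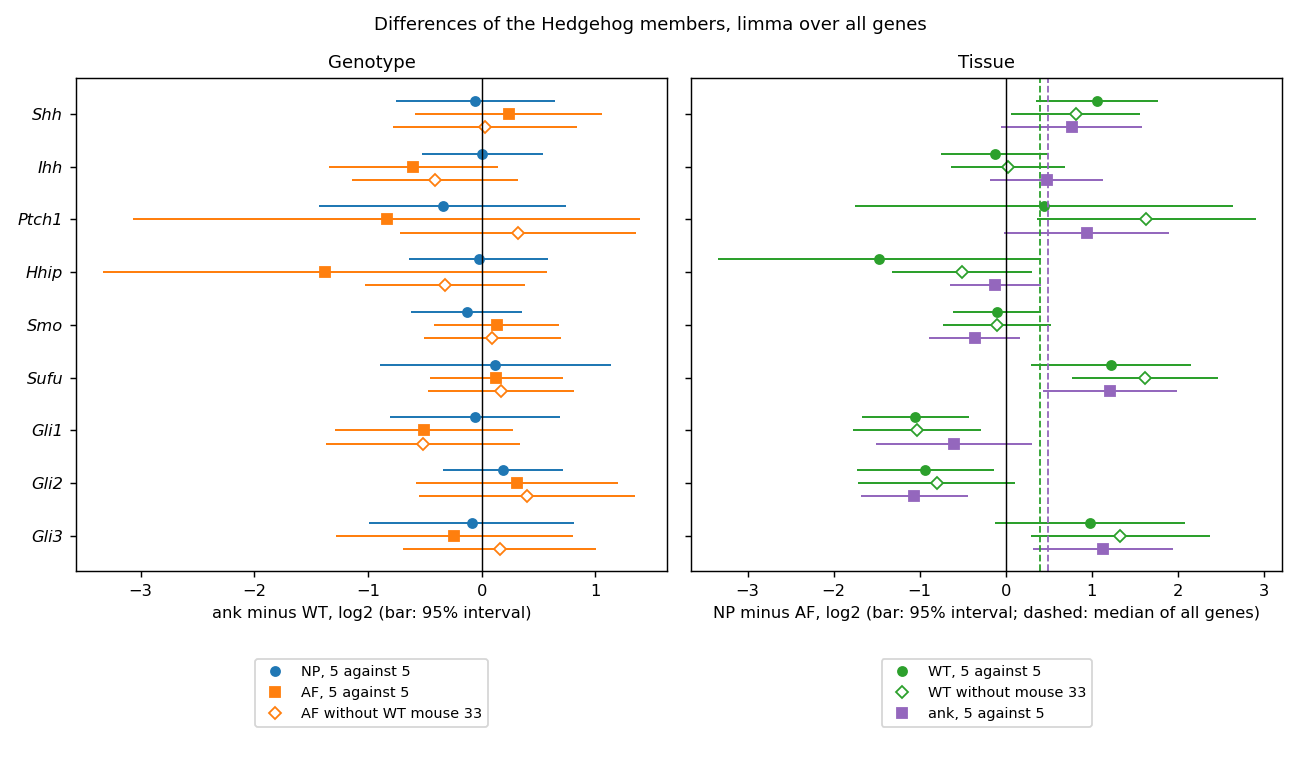
Log2 difference with 95% interval (x axis) for each of the 9 genes (y axis), from the fit without a filter, for ank minus WT in each tissue (left) and NP minus AF in each genotype (right), with and without WT mouse 33. Dashed lines mark the median of all genes. Every genotype interval includes 0, and the intervals of Ptch1 and Hhip in the AF, −3.07 to 1.40 and −3.33 to 0.57, are the widest.

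The second comparison, NP against AF of the same mice, describes where the genes were higher. The tissues were fitted as unpaired groups, with the mouse as a block among the alternatives. Scaling bears on this comparison, since array medians lay at 6.09 to 6.41 in the NP and 5.71 to 5.98 in the AF. Over all 19505 genes the median difference (NP minus AF) was 0.40 in WT and 0.49 in ank mice, and 69.9% and 79.1% of genes had a higher mean in NP. Gene by gene, the test without a filter called 31.5% of all genes in WT mice (28.9% higher and 2.51% lower in NP) and 26.5% in ank mice (25% higher and 1.51% lower). Of the 9 members, 3 were called in each genotype. Ptch1, tested under the main filter in WT mice, differed by 0.45 (SE 1.04, 95% interval −1.79 to 2.69, adjusted p = 0.713, limma), where 68.6% of 5456 genes were called. Without mouse 33 that difference was 1.63 (adjusted p = 0.0309). It was −0.21 after quantile normalization (adjusted p = 0.891) and −2.89 with the control AUC in the fit (adjusted p = 0.0205). In WT mice the control AUC was 0.725 to 0.789 in the NP. In the AF of WT mice it was 0.607 to 0.663, except for 0.763 in mouse 33. The tissues thus overlapped in AUC through that array alone, and WT fits with this covariate depend on it.

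Gli1 was lower in NP than in AF of WT mice, with a difference (NP minus AF) of −1.05 (SE 0.29, 95% interval −1.67 to −0.43, adjusted p = 0.013 in limma). It was lower in NP in 5 of 5 WT mice, from −0.51 in mouse 32 to −1.32 in mouse 53, and the groups did not overlap, as was so for 1.74% of all genes in this direction. Relative to the median gene the difference was −1.45. After quantile normalization of all arrays it was −1.58 (adjusted p = 0.00549) and after median centring −1.38 (adjusted p = 0.00372). Without mouse 53 the adjusted p was 0.0565, and with the control AUC in the fit the difference was −0.97 (adjusted p = 0.143). In ank mice 0 of the 9 had tissues apart (15.6% of all genes higher and 1.14% lower in NP), and in WT mice 0 were apart in the higher direction (20%). Gli1 in ank mice differed by −0.60 (adjusted p = 0.308), being lower in the NP of 4 of 5 mice, and a difference between the genotypes in this respect was not called (interaction 0.45, SE 0.52, adjusted p = 0.976).

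Gli2 was lower in NP of ank mice, with a difference of −1.06 (SE 0.29, 95% interval −1.68 to −0.44, adjusted p = 0.0182 in limma), and it was lower in 5 of 5 mice, although the difference in mouse 48 was −0.01. Under quantile normalization it differed by −1.34 (adjusted p = 0.0239) and under median centring by −1.50 (adjusted p = 0.0135). The call was lost without mouse 31, 34 or 39 (largest adjusted p = 0.0874). WT mice gave −0.94 (adjusted p = 0.070), or −1.30 without mouse 55 (adjusted p = 0.0214), and the call was also made under median centring (−1.27, adjusted p = 0.0232). Relative to the median gene the Gli2 differences were −1.33 in WT and −1.55 in ank mice. The NP signals of Gli2 lay under both backgrounds, so the size of these differences is not a fold.

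Sufu was higher in NP in both genotypes, by 1.22 in WT (SE 0.43, adjusted p = 0.0453) and 1.21 in ank mice (SE 0.36, adjusted p = 0.0268, limma), and in 4 of 5 mice of each. WT mouse 33 and ank mouse 48 were the exceptions, at −0.38 and −0.15. Without them the differences were 1.63 (adjusted p = 0.00575) and 1.56 (adjusted p = 0.00616), and the call was lost on leaving out any other mouse (largest adjusted p = 0.160 and 0.0957). It was also lost after quantile normalization, at 0.91 in WT and 0.76 in ank mice (adjusted p = 0.162 and 0.230), and with the control AUC in the fit, at 0.76 and 0.85 (adjusted p = 0.430 and 0.101). Relative to the median gene the Sufu differences were 0.83 in WT and 0.72 in ank mice.

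Shh was higher in NP of WT mice by 1.06 (SE 0.33, 95% interval 0.35 to 1.77, adjusted p = 0.025 in limma), in 4 of 5 mice. With the mouse as a block the adjusted p was 0.059, and after quantile normalization the difference was 0.44 (adjusted p = 0.451). Mouse 53, with −0.39, was the exception, without which the difference was 1.43 (adjusted p = 0.00683). The call was lost without mouse 32, 33, 55 or 59 (largest adjusted p = 0.106). In ank mice Shh was higher in NP in 5 of 5 mice, by 0.08 to 1.69 with a mean of 0.77 (adjusted p = 0.148). Relative to the median gene the Shh differences were 0.67 in WT and 0.28 in ank mice.

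Gli3 was higher in NP of ank mice by 1.13 (SE 0.38, adjusted p = 0.043 in limma), in 5 of 5 mice, but the call was lost on leaving out any mouse (adjusted p = 0.0526 to 0.111) and after quantile normalization (0.51, adjusted p = 0.443), and with the control AUC in the fit (0.69, adjusted p = 0.177). WT mice differed by 0.98 (adjusted p = 0.172), or 1.33 without mouse 33 (adjusted p = 0.048). Relative to the median gene the Gli3 differences were 0.59 in WT and 0.64 in ank mice. Ptch1 in ank mice differed by 0.94 (adjusted p = 0.132), or 1.44 without mouse 48 (adjusted p = 0.0199). Smo, Ihh and Hhip were not called in either genotype. In WT mice Hhip differed by −1.47 (adjusted p = 0.229), or −0.51 without mouse 33 (adjusted p = 0.349), and with the control AUC in the fit by −3.78 (adjusted p = 0.0156). Ihh differed by −0.13 there, or 0.03 without mouse 33. Smo was called lower in NP after quantile normalization, at −0.85 in WT (adjusted p = 0.0284) and −1.06 in ank mice (adjusted p = 0.0358), against −0.10 and −0.36 as deposited.

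Within the sets of high and low spike-in signal, the members called between tissues kept their direction. They had been called on these same arrays, so this direction was in part fixed beforehand. Mice 53 and 39 had the NP array in the high set and the AF array in the low set, so the sets were not paired by mouse. In WT mice the differences were −0.92 and −1.14 for Gli1, 1.31 and 1.06 for Shh and 0.85 and 1.68 for Sufu. In ank mice they were −1.31 and −0.74 for Gli2, 1.59 and 0.75 for Sufu and 1.32 and 1.09 for Gli3. The adjusted p (limma) was under 0.05 in the high set of ank mice alone, for Gli2 (adjusted p = 0.0442) and Sufu (adjusted p = 0.0423).

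The third comparison asked whether the genotype difference itself differed between NP and AF. For 0 of 6515 genes did it (0%, with 309, or 4.74%, at an unadjusted p under 0.05, limma). Ptch1, the member tested, gave 0.49 (SE 1.25, 95% interval −2.11 to 3.09, adjusted p = 0.956), and −0.69 without WT mouse 33. Without a filter the largest interaction among the 9 was that of Hhip, at 1.35 (unadjusted p = 0.187), or 0.39 without mouse 33, and the smallest adjusted p was 0.968. That of Gli3 was 0.15, or −0.20 without mouse 33.

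The relation of the 9 genes to array quality was examined in 18 correlations, 9 in each tissue, and none passed adjustment. Over the 10 NP arrays, Gli3 and the control AUC gave Pearson r = 0.80 (permutation p = 0.0101) and Spearman rho = 0.70 (permutation p = 0.030), and Ptch1 gave r = 0.76 (permutation p = 0.0111) and rho = 0.65 (permutation p = 0.0481). For Shh the correlation was negative, with r = −0.76 (permutation p = 0.00856) and rho = −0.71 (permutation p = 0.0268). On leaving out the 2 arrays of most extreme AUC, r became 0.75, 0.68 and −0.71. In the AF, Gli1 gave r = −0.69 (permutation p = 0.0215) and rho = −0.72 (permutation p = 0.0222), with r = −0.88 without 2 arrays. AF Shh gave r = −0.69 (permutation p = 0.0283) and rho = −0.66, but r = −0.43 without 2 arrays. AF Gli3 gave r = 0.66 (permutation p = 0.0354) and rho = 0.54, but r = 0.37 without 2 arrays. NP Sufu gave r = 0.66 (permutation p = 0.0325) and rho = 0.59, with r = 0.60 without 2 arrays. After adjustment over the 18 the smallest p was 0.0668 for r and 0.173 for rho.

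**Figure D4:**
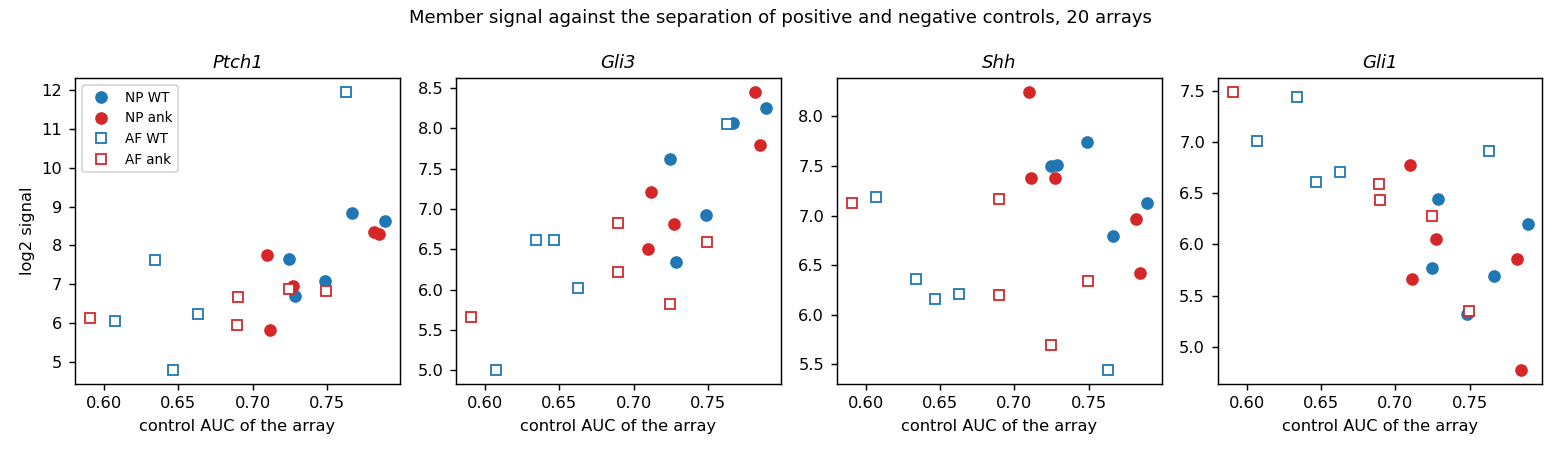
Log2 signal (y axis) of Ptch1, Gli3, Shh and Gli1 against the control AUC of the array (x axis), with filled circles for NP and open squares for AF. In the NP, r was 0.80 for Gli3, 0.76 for Ptch1 and −0.76 for Shh (n = 10), and 0 of 18 such relations passed adjustment.

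The genes whose pattern was most like that of Ptch1 in the NP, by the correlation of deviations from the group means over 10 arrays and 6340 genes, were Dock5 (r = 0.98), R3hdm1 (r = 0.97) and Ulk1 (r = 0.97). The deviations of Ptch1 itself had r = 0.75 with those of the control AUC, which the arrays share.

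Other genes of the pathway were described from 4 lists. Between tissues, a gene detected in the 5 NP arrays of a genotype passed the filter whatever its AF signal. The counts higher in NP were thus set in part by the filter, here and over all genes tested. For ligand release and co-receptors, 20 genes had a probe set. In WT mice 12 were tested between tissues, of which 8 were higher in NP (66.7%, against 67% of all genes tested) and 1 lower (1.63% of all genes), with a median difference of 2.27 against 1.50 for all genes tested. Higher in NP were Gpc3, a heparan sulfate proteoglycan that binds Hedgehog ligands (6.43), Disp1, which releases the ligand from the cell (4.33), Gpc4, another glypican (3.40, detected in 2 of 5 AF arrays), and Ext1, which builds heparan sulfate (3.23). Scube3, of a family that carries released ligand, was lower (−0.95, adjusted p = 0.0164). After quantile normalization 5 were higher and 2 lower, where 20.8% of all genes tested were higher and 7.2% lower. In ank mice 5 of 11 were higher (45.5%, against 46.4% of all genes) and 0 lower (1.28% of all genes), with a median of 1.16 against 1.09, and after quantile normalization 0 were higher (1.59% of all genes higher and 1.84% lower).

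Of 48 genes of the primary cilium and its traffic, 16 were tested in WT mice, 10 were higher in NP (62.5%) and 0 lower (median 1.27 against 1.50), among them Bbs9 of the BBSome (4.48), Lztfl1, which regulates the BBSome (2.65), Cc2d2a of the transition zone (2.54) and the intraflagellar transport gene Ift57 (2.07). These were detected in 5 of 5 NP arrays of WT mice, but Lztfl1 and Cc2d2a in 1 of 5 WT AF arrays and Ift57 in 2, so the AF level of those 3 was for the most part under the receptor background. Of the 48, 23 were detected in at least 5 of the 10 NP arrays and 10 in at least 5 of the 10 AF arrays. In ank mice 7 of 17 tested were higher in NP (41.2%). A list of 32 genes held Gli kinases, degradation genes and other regulators such as corepressors. Of these, 21 of 24 tested were higher in NP of WT mice (87.5%, median 1.96 against 1.50), and 15 of 24 in ank mice (62.5%). In WT mice they included the corepressor Sin3a (3.22), the kinase Dyrk1a (3.07) and the protein kinase A subunits Prkar1a (2.77) and Prkacb (2.69). Of all genes tested, 67% in WT and 46.4% in ank mice were called higher in NP, and 68.6% and 47.7% in either direction. After quantile normalization 3 genes of the cilium list and 4 of the kinase list were called higher in WT. In ank mice 0 of each were called. Of all genes tested, 20.8% in WT and 1.59% in ank mice were then higher, and 7.2% and 1.84% lower.

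Of 29 target genes, 7 were tested in each genotype. Higher in NP were 3 in WT mice (42.9%, against 67% of all genes tested) and 2 in ank mice (28.6%, against 46.4%). Nr2f2, a nuclear receptor, was higher in NP (3.33 in WT and 2.25 in ank mice), as was the survival gene Bcl2 (1.36 and 1.46), both detected in 5 of 5 NP arrays of each genotype. Nr2f2 was detected in 1 of 5 AF arrays in WT and 3 of 5 in ank mice, and Bcl2 in 2 and 3. After quantile normalization Nr2f2 gave 2.39 in WT (adjusted p = 0.00284) and 1.46 in ank mice (adjusted p = 0.168). Sox9, the cartilage factor, was higher by 1.92 in NP of WT mice, or 0.23 after quantile normalization (adjusted p = 0.794). Grem1, a BMP antagonist, was lower, at −4.20 in WT (adjusted p = 0.00148) and −4.46 in ank mice (adjusted p = 0.00159, limma). Of the 7 target genes tested it alone was called lower, as were 1.63% of all genes tested in WT and 1.28% in ank mice. It was called after quantile normalization too (−5.56 and −5.43, adjusted p = 0.00189 in both). Pax1, a factor of the sclerotome and the spine named here after its values were seen, was not tested between tissues because fewer than 5 of 10 arrays detected it: 0 of 5 in the NP and 4 of 5 in the AF of each genotype, with AF means of 8.04 ± 0.82 in WT and 8.47 ± 1.55 in ank mice and NP means of 4.23 ± 0.28 and 4.22 ± 0.28 (SD, n = 5). Against the receptor background of the NP arrays, AF Pax1 was at least 1.71-fold higher in WT and at least 1.90-fold higher in ank mice.

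**Figure D5:**
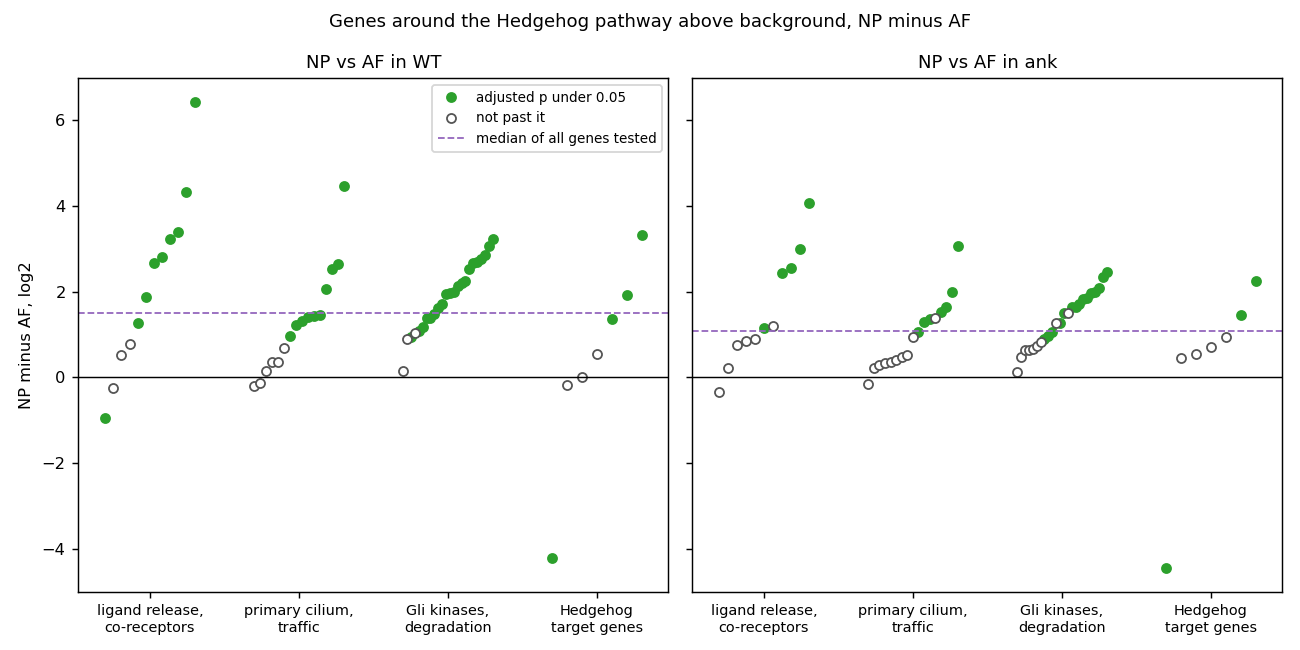
Log2 difference, NP minus AF (y axis), of each tested gene of 4 lists (x axis) in WT (left) and ank mice (right), filled where the adjusted p was under 0.05, with a dashed line at the median of all genes tested. The medians of the lists in WT mice, 2.27, 1.27, 1.96 and 0.54, lie on both sides of the median of all genes tested, 1.50.

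Between genotypes, 0 genes of the 4 lists were called in either tissue. Their medians (ank minus WT) were −0.40, −0.16, −0.13 and −0.08 in the NP against −0.11 for all genes tested, and 0.27, 0.00, 0.39 and −0.50 in the AF against 0.28. In the NP, Gpc3 differed by −0.86, Grem1 by −0.84 and Sox9 by 1.26 (adjusted p = 0.973 each). In the AF, Cdon, a co-receptor of Ptch1, differed by 1.28 and Sox9 by 2.47 (adjusted p = 0.947 each, limma). In WT mice both were higher in NP than in AF (Cdon 14.07 and 11.25, Sox9 16.27 and 14.35). In the AF, 6 of 7 NP and notochord markers tested were higher in ank mice (median 1.47, 5 of 7 and 0.34 without mouse 33) and 0 of 6 AF and tendon markers were (median −1.03, 1 of 6 and −0.65 without it), with 0 called, against medians of 0.28 and 0.42 for all genes tested. The part of this shift in the AF values was not tested.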

How the data were processed

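RNA from NP and AF of 5 WT and 5 ank mice was hybridised to Clariom S arrays, 1 per mouse and tissue. The paper gives an RNA integrity number (RIN) of around 5, and the part of RNA quality in the signals was not tested. The authors normalized the scans with sst-rma in the Transcriptome Analysis Console and deposited 1 log2 value per probe set and array. The array medians of the tissues did not overlap, and whether the tissues were normalized together or in separate runs was not tested. Comparisons between tissues are therefore given under several scalings. Detection was judged by the receptor background in place of the detection p-values of the study. Of 28846 probe sets, 19572 have a gene symbol, for 19505 genes, and the 55 genes with several used the one of highest mean. The 9 members and the gene lists were chosen with earlier results of these data known. All members are named, with up to 4 genes per list and comparison, those with the smallest p. Besides these, Scube3 is named as the ligand release gene called lower in NP of WT mice, and Pax1 without a test between tissues.

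Comparisons were fitted with lmFit and eBayes of limma (version 3.58.1, R version 4.3.3; Benjamini-Hochberg at 0.05) on genes detected in at least 5 of the 10 arrays (for the interaction, of either tissue), and again without a filter. The code was tested on simulated data. Permutation tests were two-sided with 100000 resamples, and plots were made in Python 3.11.15 (matplotlib 3.10.9). Alternatives were quantile normalization, median centring, other backgrounds, the spike-in set or mouse as a block, the control AUC as a covariate, the study's thresholds with the methods' t-test, and leaving out each mouse. The mouse number pairs the NP and AF arrays of 1 animal. Deviations from the group means correlated with a median of 0.194 within a mouse (−0.12 to 0.63, 10 pairs) and −0.0483 between mice (40 pairs). Centring on the group means ties the second value to the first, so it is no separate contrast. Arrays have no read depth, and their number limits the precision. No arrays were identical.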

Additional observations from a re-analysis of the deposited data

Results flagged for a closer look

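Of 36 groups of 5 arrays (9 genes in 4 groups), 4 held a highest or lowest array far from the others by Dixon's criterion, which flags about 1 group in 20 by chance, and all 4 were groups of AF of WT mice. Hhip was highest in mouse 33 at 11.37, with a gap to the next array of 0.784 of the range of the group. Ihh was also highest in mouse 33, at 6.02, with a gap of 0.725. Smo was highest in mouse 32 at 7.50, with a gap of 0.715, and Sufu was lowest in mouse 55 at 4.26, with a gap of 0.812. Ptch1 in mouse 33, at 11.94, had a gap of 0.605 and did not meet the criterion. The Ihh and Sufu values lay under the receptor background of their arrays, as did the Smo value of mouse 32.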

How the results depend on the processing

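In the genotype comparisons, 0 members were called under every alternative run with a test. Over all genes, the study's thresholds gave 210 in the NP (32 higher, 178 lower in ank) and 151 in the AF (145 higher, 6 lower), and the methods' t-test at those thresholds 132 and 103. Leaving out 1 mouse, Ptch1 in the NP ran from −0.61 to 0.058 (without ank mouse 48) and its interaction from −0.69 (without WT mouse 33) to 0.99 where it passed the filter, or to 1.08 (without WT mouse 53) in the fit without one. Within the low spike-in set NP Ptch1 was 0.17. No paired analysis was possible for the genotype comparisons because WT and ank mice share no number.

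Between tissues, the 3743 genes called in WT (3654 higher, 89 lower in NP) became 1526 after quantile normalization (1133 higher, 393 lower), 6135 without a filter, 2056 when detection was asked in at least 8 of 10 arrays, 5972 with the antigenomic background and 1762 once the control AUC entered the fit. In ank mice 2457 (2391 higher, 66 lower) became 177 after quantile normalization (82 higher, 95 lower), 446 after median centring (378 higher), 5177 without a filter, 4831 with the antigenomic background, 1497 with the control AUC, and 771 to 2475 on leaving out 1 mouse (771 without 39, 1623 without 31). Members called rose from 0 to 3 without a filter in both genotypes, to 3 in WT and 2 in ank mice with the antigenomic background, to 1 in each with the background at the 90th percentile, and to 1 in WT with the control AUC. Leaving out 1 WT mouse gave 0 to 1, the 1 being Ptch1 without mouse 33. With the mouse as a replicate block, 3547 genes were called in WT and 2791 in ank mice, and with the block and quantile normalization 1406 and 281. The block ended the call of Shh alone among the members. With the block and quantile normalization Ptch1 in WT mice was −0.21, as with quantile normalization alone. It was −2.89 with the control AUC in the fit, and −0.04, −0.13 and −0.01 without mouse 32, 53 and 59, and 1.63 without 33. That covariate, without a filter, gave Hhip −3.78 (adjusted p = 0.0156), Shh 1.89 (adjusted p = 0.00519) and Gli1 −0.97 (adjusted p = 0.143) in WT mice, and ended the call of Sufu there, and in ank mice it called Shh (1.26, adjusted p = 0.0209) and Gli2 (−1.11, adjusted p = 0.0285) and ended the calls of Sufu and Gli3. Among WT AF arrays only that of mouse 33 reached the control AUC of the NP arrays, so the WT values with this covariate depend on it. The antigenomic background, the spike-in block between tissues and the covariate without a filter were chosen after seeing the data. The cause of these shifts was not tested. Most members lay under the receptor background, which limits what their signals can show.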
